A study of Homo sapiens with 8 samples.

Results

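The 10 genes described here are CTNNB1, which encodes beta-catenin, and 9 genes that Wnt/beta-catenin signalling is known to switch on or that act with beta-catenin in the nucleus: AXIN2, LGR5, NKD1, RNF43, ZNRF3, TBX3, SP5, LEF1 and TCF7. They were taken by name from the 86369 gene identifiers of the deposited count table, and all 10 were found there. Of them, 9 had enough counts to be among the 13840 genes tested, and LEF1 did not. HepG2, an established line from a human liver tumour, was given either a short interfering RNA against the RNA acetyltransferase NAT10 (siNAT10) or a non-targeting one (siCtrl), both by lipofection, and its RNA was collected 2 days after that. Each of these groups had 4 libraries of mRNA 3' ends, with replicates 1 and 2 of both groups in the batch labelled 1 and replicates 3 and 4 in the batch labelled 2. The labels describe no line or clone other than HepG2 and no agent other than the siRNAs and the lipofection reagent. They do not say whether the libraries of a group came from separate cultures, so p-values measure only the spread between these libraries.

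In the Wnt pathway, beta-catenin is made continuously and is destroyed by a complex built on AXIN and APC proteins, in which kinases mark its N-terminal end for degradation. When Wnt ligands bind Frizzled and LRP receptors the complex is held back, beta-catenin enters the nucleus, and it activates genes together with TCF and LEF DNA-binding proteins. Several of those genes feed back on the pathway: AXIN2 rebuilds the destruction complex, NKD1 acts on the Dishevelled step, and RNF43 and ZNRF3 are ubiquitin ligases that remove Frizzled from the cell surface. In liver the pathway is known for setting the gene programme of hepatocytes near the central vein, and its activation is common in liver tumours. HepG2 carries, in 1 of its CTNNB1 alleles, an in-frame deletion that removes the N-terminal phosphorylation sites, so that the shortened beta-catenin escapes degradation. A count of 3' ends does not read that part of the transcript, so the CTNNB1 values below are the sum of both alleles.

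The DNA side of this wiring is shown for SP5, the gene among the 10 that differed most between the batches (below). SP5 encodes a zinc finger transcription factor that is a direct target of beta-catenin and TCF proteins. Promoters of 5 of the 10 genes were in the RefSeq table used here (SP5, CTNNB1, LEF1, TCF7 and RNF43), and those of AXIN2, NKD1, ZNRF3, LGR5 and TBX3 were not used here. The core recognised by TCF and LEF proteins was searched as CTTTGAA or CTTTGAT on both strands of the 250 bases before each start site. The SP5 window (RefSeq, GRCh38.p14, chr2:170715087-170715336, plus strand, ending at the base before the start site) held 3 matches, in capitals here.
SP5: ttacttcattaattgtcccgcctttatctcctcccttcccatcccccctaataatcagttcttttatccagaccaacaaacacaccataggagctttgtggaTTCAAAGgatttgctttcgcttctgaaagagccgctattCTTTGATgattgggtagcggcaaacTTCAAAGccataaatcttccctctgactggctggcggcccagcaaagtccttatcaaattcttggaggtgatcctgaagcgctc
The matches begin 148, 109 and 84 bases before the start site, the first and the last of them on the opposite strand and therefore reading TTCAAAG in the line above. Over 35116 promoter windows of that length, 2086 (5.94%) held at least 1 match and 7 (0.0199%) held at least 3. No match was found in the windows of CTNNB1, LEF1, TCF7 or RNF43. A match is a description of the letters, and binding was not measured.

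The libraries held between 9731718 and 27977110 counts, and a tested gene of the 10 had from 263 counts (TCF7) to 23929 counts (NKD1) in a library. NAT10 itself went from 52.6 ± 17.2 CPM (counts per 1000000 of the library, scaled for its composition) in siCtrl to 16.9 ± 5.04 CPM in siNAT10, where errors of means are SD with n = 4 libraries. The fitted log2 fold change was -1.66 (edgeR adjusted p 2.0e-05). NAT10 also differed between the batches and was higher in batch 2 (log2 difference 0.67, edgeR adjusted p 0.0021), a shift that these SDs include. Between batches 25.3% of all tested genes were called. After siNAT10 it stood at 13.1 and 12.2 CPM in batch 1 and at 20.1 and 22.3 CPM in batch 2. Of 8 hepatocyte markers, 7 (ALB, AFP, APOA1, TTR, SERPINA1, FGB and HNF4A) were counted in every library. Between the siRNAs edgeR called 0 of the 7 and DESeq2 called 1. Over all genes, edgeR called 2.28% of those tested and DESeq2 5.02% of those it gave an adjusted p. An unadjusted edgeR p under 0.05 was reached by 4 of the 7 and by 15.7% of all tested genes. Of the 4, ALB, AFP and TTR had fitted values below 0 and FGB one above. The 8 markers summed to 7038 to 7954 CPM in siCtrl and 6162 to 6773 CPM in siNAT10, so the sums did not overlap. Most of each sum was ALB (mean 4411 CPM in siCtrl and 3422 CPM in siNAT10) and AFP (1668 and 1374 CPM). Singly, 2 of the 7, ALB and TTR, had groups that did not overlap, as did 5.4% of all tested genes. FGB went the other way, from 90.3 to 117 CPM. The part of these differences in the results below was not tested. APOB, although a defining hepatocyte gene, had 0 counts in 7 of the 8 libraries, so a 0 in this table cannot be read as absence of a transcript. Markers of immune, endothelial, stromal, biliary and neural crest cells summed to 2.25 to 3.56 CPM in siCtrl and 2.26 to 3.07 CPM in siNAT10 over 10 genes, with PTPRC, CD3E, COL3A1, DCN and SOX10 at 0 in every library. In bulk RNA, fewer cells of a kind and less RNA per cell cannot be told apart.

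AXIN2, which rose about 1.43-fold, was the 1 gene of the set that passed the test between siNAT10 and siCtrl, and its call held in 9 of 18 alternatives. Over all tested genes 2.28% (315 of 13840) passed edgeR's quasi-likelihood test with batch in the model, which here means that the p adjusted by Benjamini and Hochberg's method was under 0.05. They were 0.816% higher and 1.46% lower in siNAT10, or 113 against 202 genes, and 138 against 149 with library size alone as the scaling. Of the 9 tested genes of the set, 1 was called higher and 0 lower. CTNNB1 stayed within 0.25 log2 units of its control level by the 95% interval of the fit. The feedback genes RNF43 and ZNRF3 and the target TBX3 had fitted values and 95% intervals above 0 without passing the adjusted test. The feedback gene NKD1, LGR5 and SP5 had fitted values above 0 with 95% intervals across 0. TCF7 had a fitted value below 0, also with an interval across 0. The number of called genes over the whole table depended on single libraries: it dropped to 75 when siNAT10 replicate 2 was left out, to 134 and 178 for siNAT10 replicates 1 and 3, and to 104 and 132 for siCtrl replicates 1 and 2.

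**Figure D1:**
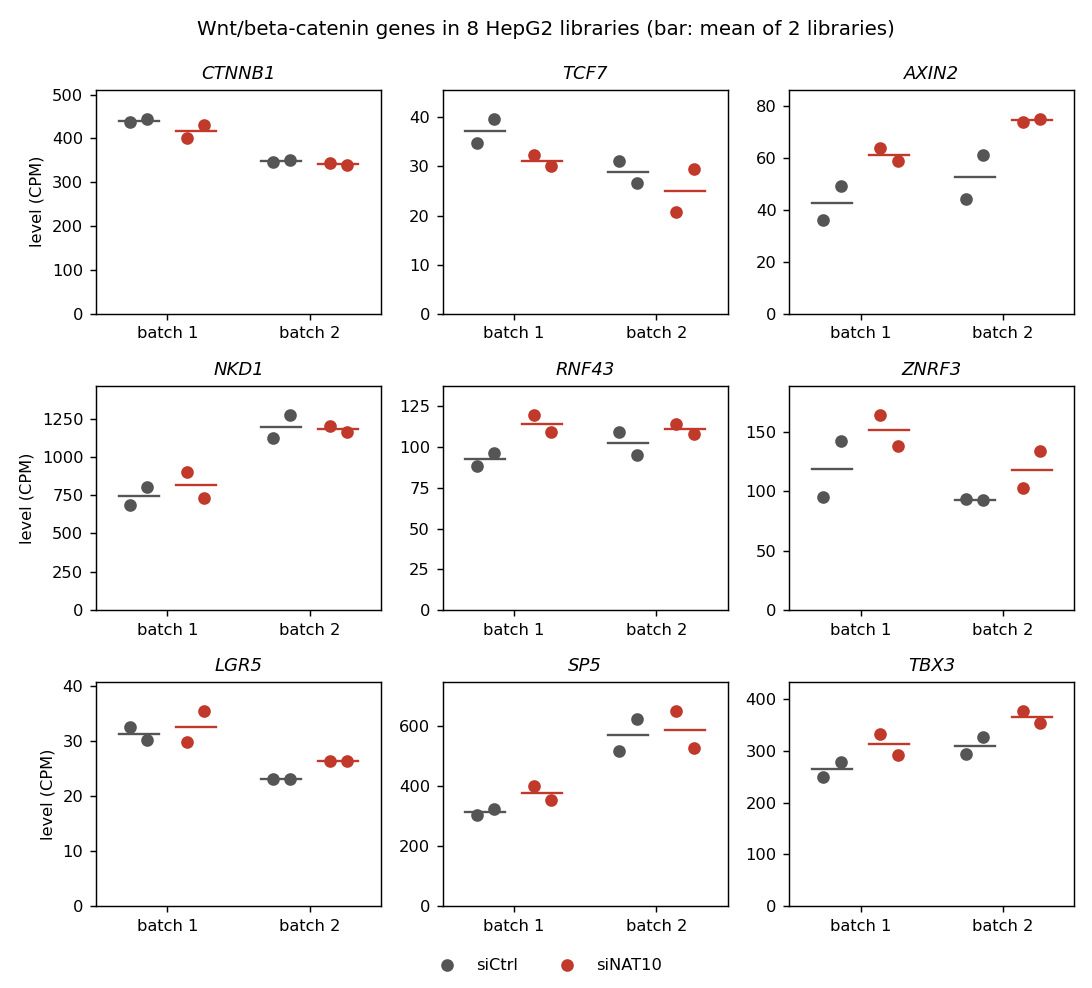
Level of each tested gene (CPM, linear axis from 0) in the 8 libraries, by batch and siRNA; points are libraries and bars are the mean of the 2 libraries of a group in a batch. AXIN2 lies higher in siNAT10 within both batches, while NKD1 and SP5 lie higher in batch 2 than in batch 1 whichever siRNA was used.

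CTNNB1 (ENSG00000168036; GRCh38 chromosome 3, 41194741 to 41260096, plus strand), the effector of the pathway, stood at 436, 444, 347 and 351 CPM in siCtrl replicates 1 to 4 and at 401, 431, 344 and 338 CPM in siNAT10 replicates 1 to 4. The siNAT10 libraries were the lower ones in each batch, but by a small margin, and over both batches the groups overlapped. The difference, siNAT10 minus siCtrl, was -0.06 ± 0.09 on the log2 scale (SE of the fit, as for each such value below; 95% interval -0.25 to 0.14, edgeR adjusted p 0.82).

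Of the nuclear partners, TCF7 (ENSG00000081059; chromosome 5, 134114681 to 134151865, plus strand), a DNA-binding partner of beta-catenin, was counted in every library. It stood at 34.8, 39.7, 31.1 and 26.7 CPM in siCtrl and at 32.3, 30.0, 20.6 and 29.4 CPM in siNAT10. Both siNAT10 libraries of batch 1 lay under both controls of that batch, and the groups overlapped in batch 2. Its log2 difference was -0.24 ± 0.12 (95% interval -0.49 to 0.02, edgeR adjusted p 0.37), so a fall could not be separated from the spread between libraries. LEF1 (ENSG00000138795; chromosome 4, 108047545 to 108168956, minus strand), the partner that is itself a frequent Wnt target, had 0 counts in all 8 libraries. A count of 0 allows up to 0.107 CPM in the deepest library and up to 0.308 CPM in the shallowest (3 counts of the unscaled total, counting error only), for reads assigned to that row.

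Among the feedback inhibitors, AXIN2 (ENSG00000168646; chromosome 17, 65528563 to 65561648, minus strand) encodes the inducible scaffold of the destruction complex and is the most widely used readout of the pathway. Its siCtrl libraries stood at 36.2, 49.1, 43.9 and 61.1 CPM and its siNAT10 libraries at 63.7, 58.6, 73.8 and 74.9 CPM. In each batch both siNAT10 libraries lay above both controls. Across batches the single overlap was siCtrl replicate 4, the highest control, which lay above siNAT10 replicate 2. The mean went from 47.6 ± 10.5 to 67.7 ± 7.91 CPM (SD), a log2 difference of 0.51 ± 0.12 (SE, 95% interval 0.25 to 0.77, edgeR adjusted p 0.037). Relative to the control mean of its own batch, the 4 siNAT10 libraries were higher by 0.60, 0.48, 0.51 and 0.53 on the log2 scale. That difference was 0.53 in batch 1 alone and 0.51 in batch 2 alone, and neither passed the threshold by itself (edgeR adjusted p 0.096 and 0.65, with 2 libraries a group). The size of the rise therefore repeated from batch to batch, while neither batch alone gave a call.

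The AXIN2 call stood close to the threshold. Leaving out 1 library kept the log2 difference between 0.43 and 0.61, and the call was kept without siCtrl replicate 2 or siCtrl replicate 4 and lost in the other 6 fits. The edgeR adjusted p was 0.15 without siCtrl replicate 1, 0.081 without siCtrl replicate 3, and 0.12, 0.094, 0.078 and 0.052 without siNAT10 replicates 1, 2, 3 and 4. Over the 18 alternatives the adjusted p ran from 0.0035 to 0.65. The ratio of AXIN2 to CTNNB1 counts within a library, which needs no scaling between libraries, was also compared. Its log2 was -3.59, -3.18, -2.98 and -2.52 in siCtrl and -2.65, -2.88, -2.22 and -2.18 in siNAT10. Both siNAT10 libraries had the higher ratio in each batch. This had to follow, since within each batch AXIN2 lay above both controls and CTNNB1 below both. The ratio is therefore not a separate check of the call. The same pattern of ratios was seen for TBX3, RNF43 and ZNRF3 (for ZNRF3 by a narrow margin in batch 1), and not for TCF7, NKD1, LGR5 and SP5.

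**Figure D2:**
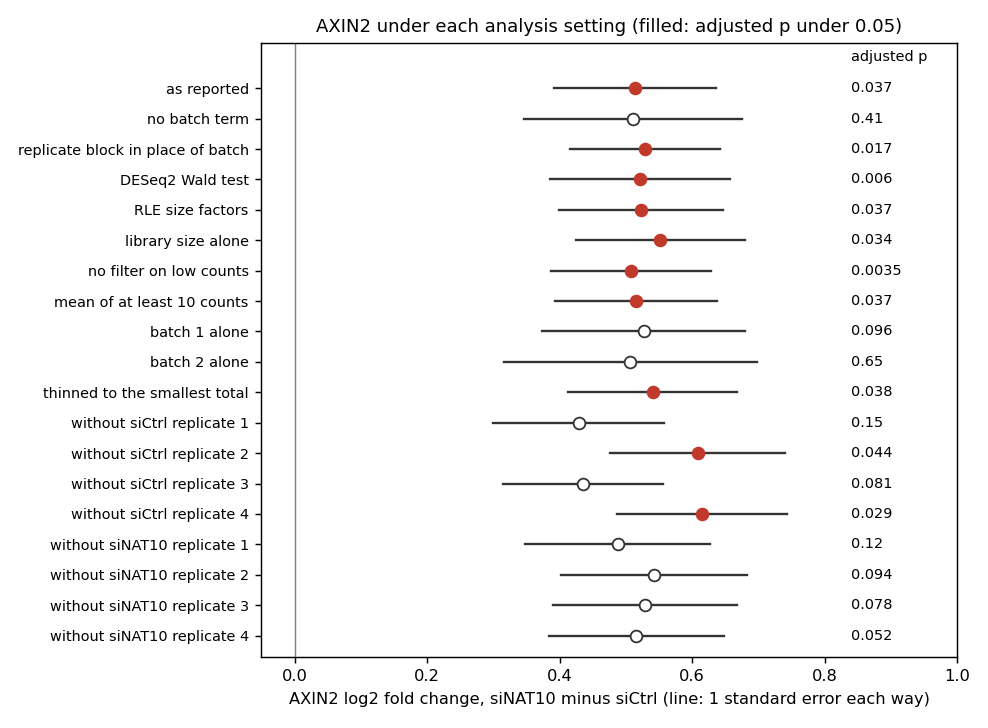
Fitted log2 fold change of AXIN2 (siNAT10 minus siCtrl, line: 1 standard error each way) under the reported fit and 18 alternatives, with the adjusted p at the right and filled points where it was under 0.05. Every estimate lies between 0.43 and 0.61, while the adjusted p lies on either side of 0.05.

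ZNRF3 (ENSG00000183579; chromosome 22, 28883572 to 29057488, plus strand), 1 of the ligases that clear Frizzled receptors, stood at 94.9, 142, 93.0 and 92.9 CPM in siCtrl and at 164, 138, 102 and 134 CPM in siNAT10. Of the controls, 3 lay close together under every siNAT10 library, and siCtrl replicate 2 lay above 3 of the 4 siNAT10 libraries. Its log2 difference was 0.35 ± 0.13 (95% interval 0.08 to 0.62, edgeR adjusted p 0.19), and 0.48 without siCtrl replicate 2 (edgeR adjusted p 0.11). It was 0.24 without siCtrl replicate 1, and no alternative brought the gene past the threshold.

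RNF43 (ENSG00000108375; chromosome 17, 58353676 to 58417595, minus strand), the paralogous ligase, stood at 88.5, 96.7, 109 and 95.2 CPM in siCtrl and at 119.6, 109, 114 and 108 CPM in siNAT10. The groups were apart in batch 1 and overlapped in batch 2, where siCtrl replicate 3 lay between the siNAT10 libraries. For RNF43 the log2 difference was 0.21 ± 0.10 (95% interval 0.0019 to 0.42, edgeR adjusted p 0.31). The 3' end of RNF43 is overlapped by TSPOAP1-AS1 on the other strand in GENCODE 44. Whether the counting used strand is not given in the sources used here, so the RNF43 count is uncertain to that extent. No other of the 10 genes had another gene's exon over the last 300 bases of a transcript.

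NKD1 (ENSG00000140807; chromosome 16, 50548396 to 50649249, plus strand) stood at 684, 800.4, 1121 and 1272 CPM in siCtrl and at 899, 731, 1199 and 1161 CPM in siNAT10. The groups overlapped in both batches. For NKD1 the log2 difference was 0.06 ± 0.11 (95% interval -0.17 to 0.29, edgeR adjusted p 0.85). The 4 feedback inhibitors therefore gave 1 call, for AXIN2, and a median fitted log2 fold change of 0.28, and differences between these genes were not tested.

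The receptor and the downstream transcription factors were measured with similar precision. LGR5 (ENSG00000139292; chromosome 12, 71439798 to 71586310, plus strand), the R-spondin receptor that marks Wnt-dependent stem cells, stood at 32.6, 30.1, 23.1 and 23.1 CPM in siCtrl and at 29.9, 35.4, 26.4 and 26.4 CPM in siNAT10. In batch 2 both siNAT10 libraries were the higher, and in batch 1 they lay on either side of the controls. Its log2 difference was 0.12 ± 0.11 (95% interval -0.10 to 0.35, edgeR adjusted p 0.64).

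SP5 (ENSG00000204335; chromosome 2, 170715337 to 170718078, plus strand) stood at 302, 324, 516 and 621 CPM in siCtrl and at 401, 354, 647 and 525 CPM in siNAT10. The groups were apart in batch 1 and overlapped in batch 2. For SP5 the log2 difference was 0.16 ± 0.11 (95% interval -0.08 to 0.39, edgeR adjusted p 0.54). TBX3 (ENSG00000135111; chromosome 12, 114670255 to 114684175, minus strand), a T-box repressor that beta-catenin induces in liver tumours, stood at 250.1, 277, 294 and 326 CPM in siCtrl and at 332, 292, 375 and 353 CPM in siNAT10. Within each batch both siNAT10 libraries lay above both controls, as for AXIN2. The TBX3 difference was smaller, 0.24 ± 0.10 on the log2 scale (95% interval 0.03 to 0.45), and did not pass the test (edgeR adjusted p 0.24).

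Read as a set, 7 of the 9 tested genes had a fitted value above 0, against 49.7% of all tested genes. Their median log2 fold change was 0.16 and that of all tested genes -0.0024. An unadjusted p under 0.05 was reached by 4 of the 9 (AXIN2, ZNRF3, TBX3 and RNF43, all with fitted values above 0) and by 15.7% of all tested genes. Every siNAT10 library lay beyond both controls of its batch, in the same direction in both batches, for 3 of the 9 (AXIN2 and TBX3 above, CTNNB1 below) and for 14.7% of all tested genes. In none of the 9 were the 4 siNAT10 libraries apart from all 4 controls, which held for 5.4% of all tested genes. These counts describe the list, whose genes share a pathway and the same libraries, and no test was made of it.

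**Figure D3:**
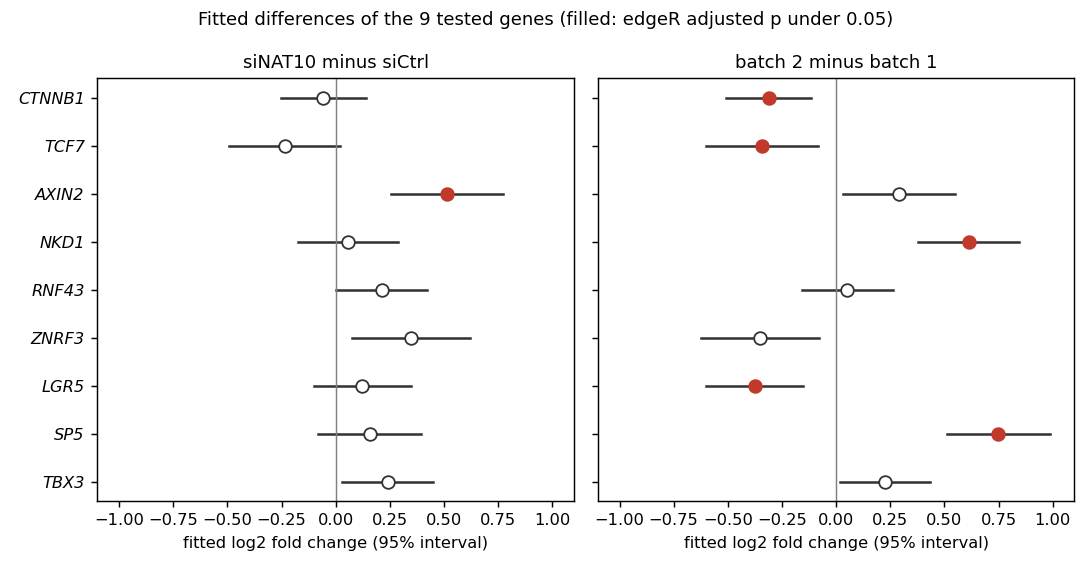
Fitted log2 fold change with its 95% interval for the 9 tested genes, between siRNAs (left) and between batches (right); filled points passed an edgeR adjusted p of 0.05. AXIN2 is the filled point on the left, and SP5, NKD1, CTNNB1, LGR5 and TCF7 are filled on the right.

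More genes differed between the batches than between the siRNAs, and the Wnt set went both ways. In batch 2, whichever siRNA was used, the targets SP5 and NKD1 were higher, and CTNNB1, LGR5 and TCF7 were lower than in batch 1. Of the 9 tested genes 2 were called higher and 3 lower, where 25.3% of all tested genes were called, 13% higher and 12.2% lower (edgeR quasi-likelihood test, batch term of the same model). Of the 7 tested hepatocyte markers 2 (28.6%) were called between batches, both higher in batch 2: HNF4A, a hepatocyte transcription factor, by 0.67 on the log2 scale (edgeR adjusted p 2.4e-04), and SERPINA1, the alpha-1 antitrypsin gene, by 1.44 (0.0098). The SERPINA1 row was low, with 29 to 183 counts a library, and its batches overlapped. In batch 2 siNAT10 replicate 3 was at 2.27 CPM, under siCtrl replicate 1 of batch 1 at 3.13 CPM. The 8 markers summed to 6223 to 7954 CPM in batch 1 and 6162 to 7249.6 CPM in batch 2, and the part of these differences in the calls was not tested. The labels give the batch as a number only, so what differed between the cultures or preparations cannot be told apart.

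SP5 ranged from 302 to 401 CPM in batch 1 and from 516 to 647 CPM in batch 2, a log2 difference of 0.75 ± 0.11 (edgeR adjusted p 1.9e-04). NKD1 ranged from 684 to 899 CPM and from 1121 to 1272 CPM, a log2 difference of 0.61 ± 0.11 (edgeR adjusted p 8.3e-04). Both calls were kept in each of the 8 fits without 1 library. CTNNB1 differed the other way, with a range from 401 to 444 CPM in batch 1 and from 338 to 351 CPM in batch 2, a log2 difference of -0.31 ± 0.09 (edgeR adjusted p 0.022). LGR5 ranged from 29.9 to 35.4 CPM in batch 1 and from 23.1 to 26.4 CPM in batch 2, a log2 difference of -0.38 ± 0.11 (edgeR adjusted p 0.016). For these 4 genes the libraries of the batches did not overlap, which held for 22.7% of all tested genes. So the gene for beta-catenin was lower in the batch in which SP5 and NKD1 were higher.

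TCF7 was called lower in batch 2 by a narrow margin (log2 difference -0.34 ± 0.12, edgeR adjusted p 0.049), and its batches overlapped. AXIN2 (0.29, edgeR adjusted p 0.091), TBX3 (0.23, 0.10), ZNRF3 (-0.35, 0.055) and RNF43 (0.05, 0.75) were not called. Some of these calls turned on single libraries. The CTNNB1 call was lost when siCtrl replicate 1, 2 or 4, or siNAT10 replicate 2 or 3, was left out (edgeR adjusted p 0.052, 0.055, 0.058, 0.072 and 0.054), and that of LGR5 without siCtrl replicate 1 or siNAT10 replicate 2 (0.062 and 0.065). That of TCF7 was lost when any 1 of siCtrl replicates 1, 2 and 4 was left out (0.070, 0.15 and 0.14), or of siNAT10 replicates 1, 2 and 3 (0.11, 0.082 and 0.18). The batch difference of AXIN2 passed without siCtrl replicate 3 (0.38, edgeR adjusted p 0.027) and was as low as 0.19 without siCtrl replicate 4 (0.32). That of ZNRF3 passed without siCtrl replicate 1 (-0.46, 0.020) or siNAT10 replicate 4 (-0.43, 0.026) and was -0.23 without siCtrl replicate 2 (0.25).

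Whether the siRNA effect differed between the batches was tested with an interaction term. With edgeR it was called for 0 of the 13840 genes (0%), of which 421 had an unadjusted p under 0.05. DESeq2 called 1 gene, and edgeR with no filter on low counts called 15. None of the 9 tested genes of the set had an unadjusted p under 0.05. For AXIN2 the difference between the batches' effects was -0.02 on the log2 scale, with a 95% interval from -0.56 to 0.53. The largest estimate among the 9 was that of SP5, -0.22 with a 95% interval from -0.71 to 0.26.

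The rest of the pathway was read from a list of 101 further genes by role, of which 57 were tested. With edgeR none of the 57 was called, higher or lower, where 2.28% of all tested genes were. DESeq2 called 2 of the 51 to which it gave an adjusted p (3.92%), KREMEN1 and DKK1, and 5.02% of all such genes. Of the 57, 12 (21.1%) had an unadjusted p under 0.05, 5 with fitted values above 0 and 7 below, against 15.7% of all tested genes. The median log2 fold change was -0.02, and between -0.025 and 0.051 without 1 library. Of 19 Wnt ligands 1 was tested and 10 had no count in any library, and of 6 genes of the R-spondin arm 2 were tested. The intracellular parts were better covered: 13 of 15 genes of the destruction complex and its turnover were tested, with a median of 0.10, and 13 of 15 of the nuclear complex, with a median of -0.07. The 10 receptors and 7 antagonists tested had medians of 0.04 and -0.03. A missing count again concerns rows of the table: LRP6, the co-receptor, and WLS, the ligand carrier, had no count in any library either.

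KREMEN1, a co-receptor of the DKK antagonists, came nearest to a call. It stood at 23.3, 24.6, 27.6 and 31.7 CPM in siCtrl and at 34.2, 31.6, 35.6 and 40.8 CPM in siNAT10, higher within each batch, with a log2 difference of 0.41 ± 0.11 (edgeR adjusted p 0.051). With the replicate number as a block its adjusted p was 0.035 and it was called, as it was with DESeq2 (0.014), RLE size factors (0.049) and library size alone (0.046). In the destruction complex, the adaptor AMER1 (0.39, edgeR adjusted p 0.27) and the ubiquitin ligase subunit BTRC (0.29, 0.22) had fitted log2 fold changes above 0 and the kinase CSNK1A1, which primes beta-catenin for degradation, one below (-0.29, 0.16). CSNK1A1 stood at 64.6, 58.6, 55.0 and 52.5 CPM in siCtrl and at 45.0, 48.0, 43.4 and 51.7 CPM in siNAT10. Every siNAT10 library lay under every control, which did not suffice for a call. In either direction the groups were apart for 2 of the 57 genes and for 5.4% of all tested genes. AMER1 depended on single libraries: it was at 0.58 and called without siNAT10 replicate 4 (edgeR adjusted p 0.033), and at 0.19 without siNAT10 replicate 3 (0.67). In the nucleus, CTNNBIP1, a protein that blocks beta-catenin from binding TCF, and the coactivator CREBBP had fitted values of -0.32 and -0.36 (edgeR adjusted p 0.14 and 0.18).

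**Figure D4:**
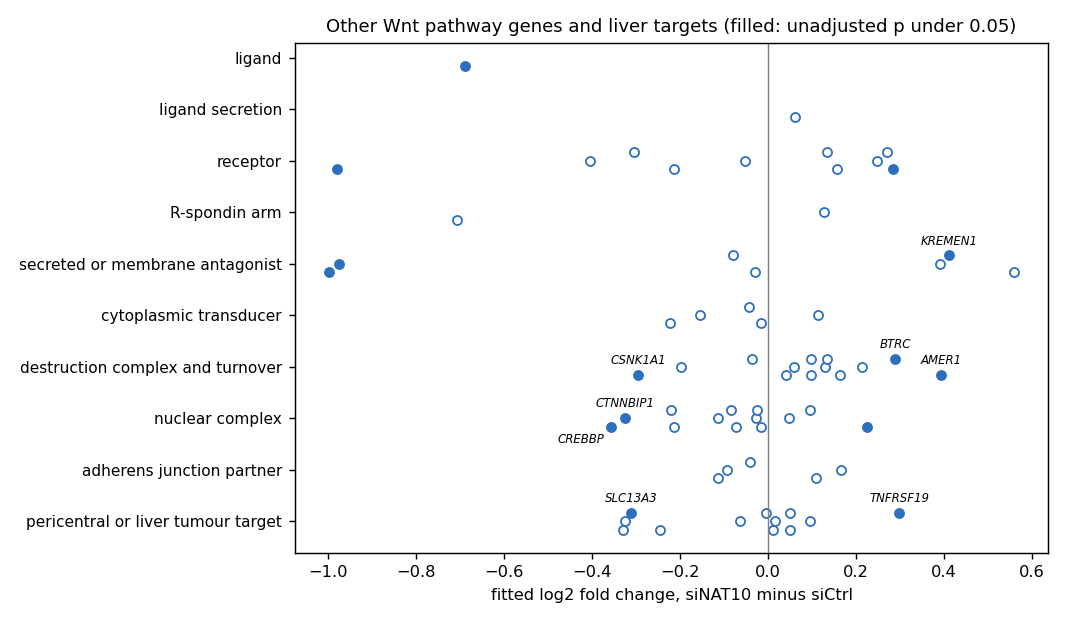
Fitted log2 fold change (siNAT10 minus siCtrl) of the tested genes of the pathway list and of the liver target list, by role; each point is a gene and filled points had an unadjusted p under 0.05. Points lie on both sides of 0 in most roles, and none passed the adjusted threshold.

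A second list held 20 genes that beta-catenin is known to raise in liver or in liver tumours. Of them 12 were tested. With edgeR 0 were called, against 2.28% of all tested genes, and 2 (16.7%) had an unadjusted p under 0.05, against 15.7%. With DESeq2 0 of 11 were called. The list had a median log2 fold change of 0.0041, which was between -0.055 and -0.0063 when 1 library was left out. TNFRSF19, a Wnt-induced receptor, had a fitted value of 0.30 (edgeR adjusted p 0.20), and SLC13A3, a dicarboxylate transporter, -0.31 (0.13). CYP27A1 and CCND1 were at 0.10 and 0.05 (0.72 and 0.90), and SLC1A2 and ODAM at -0.33 and -0.24 (0.43 and 0.47). Between batches 4 of the 12 (33.3%) were called, all higher in batch 2, where 13% of all tested genes were called higher and 25.3% in either direction. They were CCND1, a cyclin (log2 difference 0.93), BMP4, a growth factor (0.84), GLUL, the glutamine synthetase of pericentral hepatocytes (0.67), and TNFRSF19 (0.59), with edgeR adjusted p between 9.4e-05 and 0.0015. GLUL and BMP4 were picked out after their values were seen. Of the 57 tested genes of the pathway list, 5 (8.77%) were called higher and 13 (22.8%) lower in batch 2, together 31.6% against the 25.3% of all tested genes.

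The genes whose pattern over the 8 libraries was most like that of AXIN2, after the mean of each batch was removed, were CLUH, DCAF1, SLC44A1, PRPSAP2 and SYTL1. Their Pearson r with AXIN2 was 0.985, 0.985, 0.979, 0.979 and 0.977, the highest among 7660 protein-coding genes with a mean of at least 10 CPM, and 2 of them were called higher in siNAT10 (DCAF1, log2 fold change 0.50, edgeR adjusted p 0.040, and SLC44A1, 0.39 and 0.047). None belongs to the lists used here. Of the Wnt set, TBX3 stood nearest with an r of 0.95 (rank 39), followed by ZNRF3 with 0.81 (rank 475), SP5 with 0.70 (rank 920), RNF43 with 0.63, NKD1 with 0.60 and LGR5 with 0.37. TCF7 and CTNNB1 had negative values, -0.53 and -0.55. These values are a description over the same 8 libraries, in which the siRNA groups are 1 of the things the genes share.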

How the data were processed

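Poly(A) RNA of 8 HepG2 libraries (4 siCtrl, 4 siNAT10, 2 batches per the labels) was measured with a Lexogen QuantSeq kit, which reads mRNA 3' ends, so a count stands for a transcript end and is not divided by length. The series text names the forward kit and the sample protocols the reverse one. The deposited values are counts of reads per gene in whole numbers, made by the authors with Trim Galore 0.6.10, cutadapt 3.5, STAR 2.7.9a on GRCh38 and featureCounts, per the submitters' processing notes. The annotation release, strand setting and treatment of shared reads are not given in the sources used here. Columns were matched to libraries through the sample descriptions, and symbols and positions came from GENCODE 44, which held 61458 of the 86369 identifiers. The other identifiers held 1.27% to 1.65% of the counts, depending on the library, and were kept.

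Genes were tested across the whole table in R 4.3.3 with edgeR 4.0.16: filterByExpr by group at a minimum count of 10, TMM scaling, and the quasi-likelihood F test with batch and siRNA, with calls at an adjusted p (Benjamini-Hochberg) under 0.05. Standard errors were taken from the F statistic and 95% intervals from its degrees of freedom. CPM are counts per 1000000 of the TMM-scaled library, except the sums of marker genes and the limits for LEF1, which use the unscaled total. The code was tested on simulated data with the gene means and library sizes of these libraries. Of genes changed by 1 log2 unit 84.8% were called in the right direction, and of those changed by 0.5, 36.1%. The changed genes were drawn at random from all tested genes, and their spread was set by its trend with level, not gene by gene. In that simulation a change of 0.5 was therefore often not called. This is an average over genes of all levels and not a rate for the 10 genes described here. The genes, lists and tests were chosen with earlier results of these data known. The genes named were the 10, NAT10, every called gene of the 2 further lists and, in each list and direction, the 3 with the lowest p among those with a mean of at least 5 CPM, and the 5 genes most like AXIN2. Alternatives were no batch term, a replicate block, DESeq2 1.42.0, RLE factors, library size alone, 2 other filters, each batch alone, thinning to 9731718 counts and leaving out each library. Same-numbered libraries of the groups, whose numbers come from the titles, deviated together, largely along the batch. Their correlations across genes were 0.37, 0.37, 0.43 and 0.33 for replicates 1 to 4. With the other siNAT10 library of its batch, the siCtrl library had 0.47, 0.35, 0.13 and 0.31. Replicate 1 was thus closer to the other number, and replicates 2 and 4 were nearly as close to it. Pairing beyond the batch was therefore not settled, and the replicate number was used as a block in an alternative only.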

Additional observations from a re-analysis of the deposited data

Results flagged for a closer look

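In each siRNA group of 4 libraries it was examined, for 22 genes, whether 1 library lay far from the others relative to the group's range. This was so in 2 of 44 groups. For libraries of 1 kind, about 2.2 would be found by chance (1 in 20). Each group here joined libraries of 2 batches, between which several of the genes differed, so that rate does not apply as it stands. Whether the 2 groups go beyond chance was not tested. ZNRF3 was at 142 CPM in siCtrl replicate 2, against 92.9 to 94.9 CPM in the other controls. CYP27A1, a sterol hydroxylase of the liver list, was at 109 CPM in siNAT10 replicate 4, against 141 to 145 CPM in the other siNAT10 libraries.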

How the results depend on the processing

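The direction of the AXIN2 rise held under all 18 alternatives, and its call under 9 of them. The call was lost without the batch term (edgeR adjusted p 0.41), in each batch alone and in 6 of the 8 fits without 1 library. With the replicate number as a block 454 genes were called in place of 315, AXIN2 kept its call (adjusted p 0.017), and of the genes named in the text KREMEN1 gained one. Between siRNAs 15 genes were called without the batch term (0 of the 10 Wnt genes), 601 with DESeq2, 595 with no filter on low counts, 173 in batch 1 alone (0 of the 10) and 0 in batch 2 alone (0 of the 10), where 946 genes had an unadjusted p under 0.05. Leaving out 1 library gave 75 to 286 called genes and 0 to 1 of the 10. The interaction gave 1 call with DESeq2, 15 with no filter and 0 to 2 without 1 library. NAT10 had a log2 fold change of -1.58 and an adjusted p of 0.086 in batch 2 alone. The sign turned for genes near 0 that were never called: NKD1 between siRNAs was at -0.017 in batch 2 alone, -0.0014 without siCtrl replicate 1 and -0.020 without siNAT10 replicate 1. CCND1 was at -0.11 in batch 2 alone, at -0.027 without siCtrl replicate 2, and at -0.039 and -0.023 when siNAT10 replicate 2 or 3 was left out. RNF43 between batches was at -0.0054 without siCtrl replicate 3. The highest values without 1 library were 0.11 for NKD1, 0.19 for CCND1 and 0.095 for RNF43. The batch call of TCF7 was lost with RLE factors (0.055) and library size alone (0.051), and ZNRF3 gained one with DESeq2 (0.049) and with no filter (0.013). Beyond the smaller number of libraries in the fits that leave some out, the cause of these changes was not tested. With library size alone the median of all genes was 0.037. Beside AMER1, NKD1 and CCND1, and among genes that were not called, leaving out 1 library moved the siRNA difference by over 1.5 times for CTNNB1 (-0.067 to -0.032), TCF7 (-0.34 to -0.14), LGR5 (0.09 to 0.18), SP5 (0.097 to 0.24), CYP27A1 (0.043 to 0.19), SLC1A2 (-0.56 to -0.17) and ODAM (-0.36 to -0.16). The sign of the medians of both further lists turned too: that of the pathway list ran from -0.031 to 0.051 over all alternatives and that of the liver list from -0.12 to 0.058. The median of the Wnt genes stayed between 0.12 and 0.25 in all alternatives.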

Other observations

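The pathway list also held 4 low genes, each with a mean under 5 CPM, that had fitted values below 0 at an unadjusted p under 0.05. They were picked out after their values were seen, and none was called with edgeR as reported. DKK1, a secreted antagonist that is itself a Wnt target, stood at 2.51, 3.57, 3.42 and 6.86 CPM in siCtrl and at 1.92, 0.973, 3.84 and 1.47 CPM after NAT10 depletion. Its log2 difference was -0.997 ± 0.32 (SE, edgeR adjusted p 0.12), and it was called with DESeq2 (adjusted p 0.048) and with no filter on low counts (edgeR adjusted p 0.0042). The groups were apart in batch 1 and overlapped in batch 2. The receptor FZD2 (-0.98, edgeR adjusted p 0.21), the antagonist SFRP5 (-0.97, 0.32) and WNT7B (-0.69, 0.20), the only Wnt ligand with enough counts to be tested, were the other 3. Better-counted genes not named above reached that unadjusted p with fitted values above 0. They were the receptor FZD4 (0.28, edgeR adjusted p 0.29, mean 23.2 CPM) and BCL9L of the nuclear complex (0.22, 0.31, mean 49.1 CPM). DKK1 therefore had a fitted value of the opposite sign to AXIN2, and both are known as feedback targets of the pathway. That contrast rests on 1 low gene, with a mean of 3.07 CPM. Antagonists of the list with a mean of at least 5 CPM lay on both sides of 0. KREMEN1 (0.41) and APCDD1 (0.39) were above, NOTUM (-0.03) and KREMEN2 (-0.08) below, and none was called with edgeR as reported. The difference between AXIN2 and DKK1 was not tested.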
